A study of Mus musculus with 28 samples.

Results

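Genes that take up, carry, store and export lipid were followed as a mouse Pre-B cell line turned into macrophages. The set holds 10 of the 55450 genes in the expression table, found by their symbols: Cd36 and Lpl for uptake, Fabp4 and Fabp5 for transport inside the cell, Plin2 for storage, Abca1, Abcg1 and Apoe for efflux, and the nuclear receptors Nr1h3 and Pparg. All samples came from C10, a line derived from HAFTL cells, which carries a CEBPalpha-ER transgene (rat C/EBPα fused to the hormone-binding part of the estrogen receptor). The 0h cells were not induced, and the 1h, 12h and 48h cells had received 100 nM β-estradiol together with 10 nM IL-3 and CSF-1, so what the transgene does and what the cytokines do cannot be told apart. RNA-seq was made from 3 libraries at each of the 4 time points, 12 in all, and promoter capture Hi-C (PCHi-C), which lists the DNA fragments found in contact with captured promoter fragments (baits), gave 1 list per time point, merged from 2 replicates. C10 is 1 cell line, so differences among the libraries of a time point measure only the spread between cultures or preparations of that line.

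Macrophages clear lipoproteins and dead cells, and so take in more cholesterol and fatty acid than they use. Lipid enters through scavenger receptors such as CD36 or after lipoprotein lipase has released fatty acids, FABP proteins carry fatty acids through the cytosol, and the surplus is esterified into droplets coated by perilipin-2. Cholesterol leaves through the transporter ABCA1 to lipid-poor apolipoproteins, apolipoprotein E among them, and through ABCG1 to mature HDL particles. The liver X receptor LXRα, encoded by Nr1h3, and PPARγ, encoded by Pparg, are lipid sensors, and Abca1, Abcg1 and Apoe are textbook LXR targets, while Cd36, Fabp4 and Plin2 are textbook PPARγ targets.

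RefSeq promoter windows, from 250 bases before to 50 after an annotated start (GRCm38.p6, the sequence of mm10), were found for 6 of the 10 genes, with 11 windows in all. Shown here are those of the 3 genes that rose most by 48h and of Apoe, which fell by TPM, so that their sequences can be compared. Each lies on the minus strand and is printed 5′ to 3′, with capitals marking matches to 4 motifs searched on both strands: TTGCNNAA (C/EBP-type), 2 copies of GGTNA with any 5 bases between them (LXR-type direct repeat), 2 copies of AGGNCA with any 1 base between them (PPAR-type direct repeat) and TATAAA, the core of a TATA box, with N for any base.
Abca1, chr4:53159846-53160145: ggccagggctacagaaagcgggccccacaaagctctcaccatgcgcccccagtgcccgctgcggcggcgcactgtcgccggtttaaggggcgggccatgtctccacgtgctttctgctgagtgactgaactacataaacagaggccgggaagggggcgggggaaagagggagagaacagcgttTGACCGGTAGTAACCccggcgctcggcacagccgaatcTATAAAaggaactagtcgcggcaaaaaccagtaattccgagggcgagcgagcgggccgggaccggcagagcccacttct
Plin2, chr4:86670010-86670309: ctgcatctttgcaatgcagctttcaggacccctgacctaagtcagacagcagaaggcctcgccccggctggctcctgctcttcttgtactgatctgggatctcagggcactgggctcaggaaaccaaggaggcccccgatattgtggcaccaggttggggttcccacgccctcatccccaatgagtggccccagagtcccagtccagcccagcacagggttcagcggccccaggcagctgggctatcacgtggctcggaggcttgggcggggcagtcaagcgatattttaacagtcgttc
Cd36, chr5:17835847-17836146: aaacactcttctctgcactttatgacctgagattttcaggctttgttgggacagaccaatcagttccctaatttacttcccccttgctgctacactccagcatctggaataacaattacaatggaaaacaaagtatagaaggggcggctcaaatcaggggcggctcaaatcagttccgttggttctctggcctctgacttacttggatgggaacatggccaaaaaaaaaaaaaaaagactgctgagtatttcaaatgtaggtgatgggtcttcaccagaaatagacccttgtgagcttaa
Apoe, chr7:19699139-19699438: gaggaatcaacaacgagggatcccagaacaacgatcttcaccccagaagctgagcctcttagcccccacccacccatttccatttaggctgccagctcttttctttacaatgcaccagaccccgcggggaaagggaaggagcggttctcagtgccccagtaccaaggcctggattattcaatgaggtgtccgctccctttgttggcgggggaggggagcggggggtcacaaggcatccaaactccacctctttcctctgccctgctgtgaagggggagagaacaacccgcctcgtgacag
The Abca1 window held a match to the LXR-type repeat on the opposite strand, from base -67 to -53 counted from the start, and a TATA box from -29 to -24. Of all 32851 windows in the table, 0.718% held that repeat, 13.6% the TATA box, 10.8% the C/EBP-type motif and 0.381% the PPAR-type repeat. The other 3 printed windows held none of these letter strings. Among the windows not printed, a Pparg window (chr6:115421816-115422115, plus strand) held the C/EBP-type motif at 2 places, and windows of Apoe and Pparg held TATAAA. A match is a string of letters in the window, and binding to it was not measured in the data used here. The promoters of Lpl, Fabp4, Fabp5 and Abcg1 are named only.

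RNA levels are given as TPM, which are scaled to gene length and to the library's total and so can be compared between genes. The ribosomal RNA locus took from 70.3% to 82.9% of the TPM of a library, so all other genes share a small and varying remainder. The median log2 fold change over all genes tested, against 0h, came to 0.59 for 1h, 0.34 for 12h and -0.18 for 48h. After median-of-ratios scaling (division of each library by a factor set by the typical gene) these medians were 0.02, 0.07 and 0.07, and values on both scales are given below. Changes were tested with limma on log2(TPM + 0.1), over 16415 genes whose mean TPM reached 0.1, and called at a Benjamini-Hochberg adjusted p under 0.05. Of the 10 genes, 6 passed the filter (Cd36, Lpl, Fabp5, Plin2, Abca1 and Apoe) and 4 did not (Fabp4, Abcg1, Nr1h3 and Pparg). A gene can pass through the time point at which it is high, as Abca1 did.

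The labelled cell types were checked against markers. The summed TPM of 12 Pre-B cell markers went from between 300 and 341 at 0h to between 26.9 and 38.4 at 48h, and that of 10 macrophage markers from between 3.68 and 4.94 to between 729 and 856. Most of the macrophage sum at 48h was Mmp12, at 490, 575 and 409 TPM. Of the 10 macrophage markers, 9 reached 1 TPM in some library, while Adgre1, which encodes F4/80, stayed at 0.29 TPM or less. Of 7 adipocyte markers only Adipor2 reached 1 TPM, and Adipoq, Lep, Plin1 and Cidec were at 0.17 or less in every library. The summed hepatocyte markers reached at most 0.06 TPM, those of T cells 0.27, those of neutrophils 2.93 and those of erythroid cells 0. The 5 endothelial markers summed to between 4.65 and 6.32 TPM at 0h and between 5.83 and 7.72 at 48h, and among them only Pecam1 reached 1 TPM. The part of this change of cell type in the results below was not tested. In such bulk samples, fewer cells of a type and less RNA per cell cannot be told apart, and the 48h values are a mean over all cells in the dish.

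At 48h against 0h, all 6 genes tested were called by TPM. Cd36, Lpl, Plin2 and Abca1 rose, and Fabp5 and Apoe fell. With median-of-ratios scaling 4 were higher and 1 lower, and Apoe did not pass (adjusted p = 0.0558 by limma). Over all genes, 15.9% were called higher and 27.2% lower in this comparison (24.5% and 22.0% after median-of-ratios scaling). The rises came at different times. Lpl was already above its 0h level at 1h, Plin2 and Abca1 rose by 12h, and Cd36 stayed low until 48h.

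**Figure D1:**
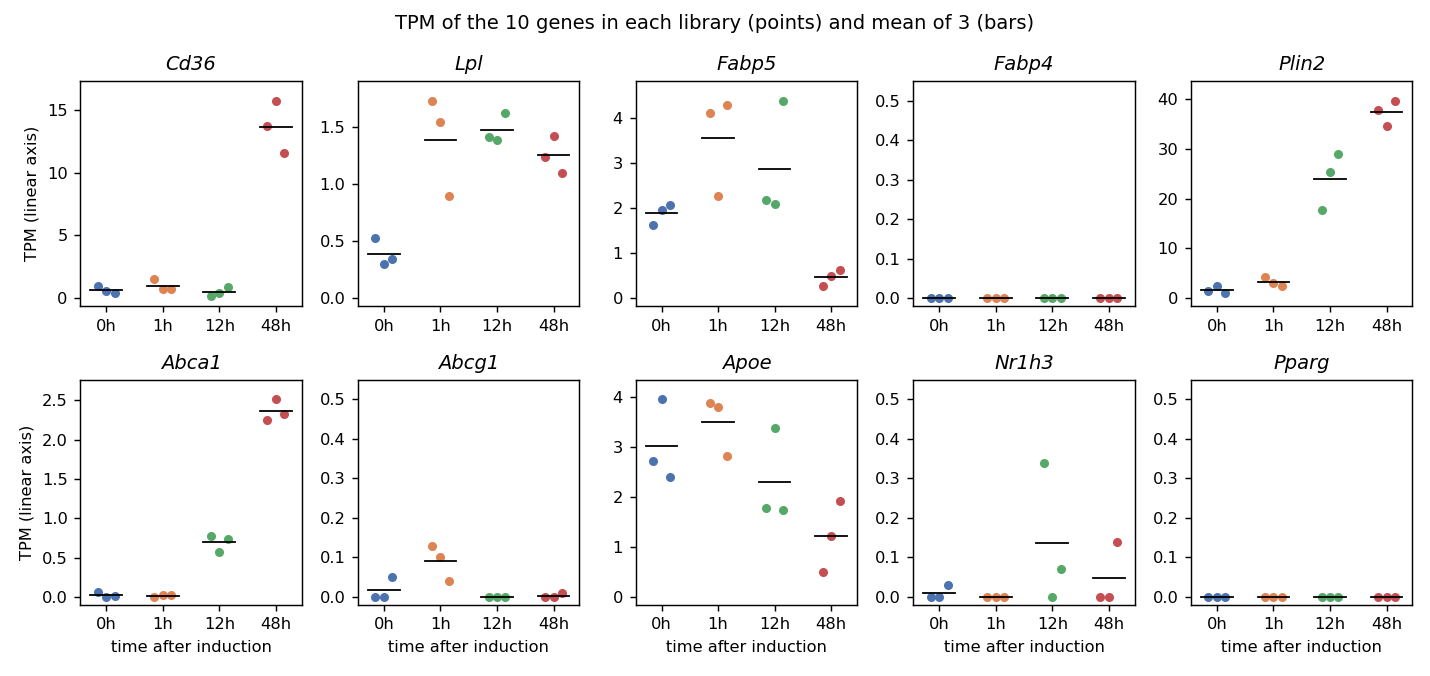
TPM (linear axis, own scale per panel) of the 10 genes in each of the 3 libraries (points) at 0h, 1h, 12h and 48h, with the mean of 3 as a bar. Cd36 sits at or below 1.53 TPM until 12h and between 11.6 and 15.7 at 48h, Plin2 and Abca1 climb from 1h to 12h to 48h, and Fabp4 and Pparg are listed at 0 in all 12 libraries.

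Cd36 encodes a scavenger receptor for oxidised lipoprotein and a carrier of long-chain fatty acids (mm10 chromosome 5, 17781690 to 17888801, minus strand). Its TPM was 0.99, 0.56 and 0.41 at 0h, 1.53, 0.76 and 0.75 at 1h, 0.14, 0.38 and 0.90 at 12h, and 13.7, 15.7 and 11.6 at 48h. The first 3 time points overlap, and all 48h libraries lie far above every other library. Neither the 1h value, 0.57 on the log2 scale (SE 0.48, adjusted p = 0.405 by limma), nor the 12h value, -0.56 (SE 0.48, adjusted p = 0.416 by limma), passed the threshold. The step from 12h to 48h was 4.81 on the log2 scale (SE 0.48, adjusted p = 2.51e-05 by limma), and against 0h it was 4.25 (SE 0.48, adjusted p = 2.21e-05 by limma). At 48h Cd36 had a mean of 13.7 ± 2.08 TPM (SD, n = 3), above 94.9% of the genes tested.

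Lpl encodes lipoprotein lipase, the secreted enzyme that frees fatty acids from lipoprotein triglyceride (chromosome 8, 68880491 to 68907448, plus strand). Its TPM was 0.53, 0.30 and 0.34 at 0h, 1.73, 1.54 and 0.90 at 1h, 1.41, 1.39 and 1.62 at 12h, and 1.24, 1.42 and 1.1 at 48h. Every library after induction lies above every 0h library, and by TPM the 3 later time points overlap with one another. The 1h change was 1.59 on the log2 scale (SE 0.28, adjusted p = 0.00254 by limma), and it was 0.99 after median-of-ratios scaling (adjusted p = 0.0220 by limma; between 0.00164 and 0.110 in 26 alternatives). The values against 0h were 1.71 at 12h (SE 0.28, adjusted p = 0.000838 by limma) and 1.49 at 48h (SE 0.28, adjusted p = 0.00102 by limma). Without replicate 2 at all time points, neither the 1h call (adjusted p = 0.110 by limma) nor the 48h call (adjusted p = 0.0580 by limma; between 5.51e-05 and 0.0580 in 26 alternatives) was kept, and the 1h call was also lost after rescaling without the 20 most abundant genes (adjusted p = 0.0539 by limma) and after quantile normalization (adjusted p = 0.0663 by limma). From 12h to 48h Lpl went down by TPM (-0.22 on the log2 scale) and up after median-of-ratios scaling (0.48), and neither value passed the threshold. Its level stayed low in TPM, at 1.25 ± 0.160 (SD, n = 3) at 48h, above 58.9% of the genes tested.

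Fabp5, which encodes a fatty acid binding protein found in skin and macrophages, went the other way (chromosome 3, 10012548 to 10016607, plus strand). Its TPM was 1.62, 1.96 and 2.07 at 0h, 4.10, 2.26 and 4.29 at 1h, 2.17, 2.08 and 4.38 at 12h, and 0.27, 0.50 and 0.62 at 48h. By TPM, all libraries at 1h and 12h lie above those at 0h, by little in some, and all 48h libraries lie below every other. After median-of-ratios scaling the ranges at 0h, 1h and 12h overlap, and the 48h libraries still lie below every other. The 1h value of 0.83 (SE 0.36, adjusted p = 0.106 by limma) and the 12h value of 0.51 (SE 0.36, adjusted p = 0.315 by limma) did not pass. By 48h it had fallen, with a log2 fold change of -1.86 against 0h (SE 0.36, adjusted p = 0.00121 by limma) and -2.37 against 12h (SE 0.36, adjusted p = 0.000405 by limma). After median-of-ratios scaling the values against 0h were 0.20 at 1h and 0.18 at 12h, and neither passed. At 48h the scaled values were -1.54 against 0h and -1.72 against 12h (adjusted p = 0.0028 and 0.0033 by limma). Fabp5 has processed copies in the mouse genome, and how reads shared with them were assigned was not examined. Fabp4 (chromosome 3, 10204088 to 10208576, minus strand), a neighbour of Fabp5 and the fatty acid binding protein typical of adipocytes and many macrophages, was listed at 0 in all 12 libraries.

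Plin2 encodes perilipin-2, the coat protein of lipid droplets in most cells (chromosome 4, 86648386 to 86670060, minus strand), and it reached the highest level of the 10 genes. Its TPM was 1.47, 2.53 and 1.14 at 0h, 4.26, 3.00 and 2.45 at 1h, 17.6, 25.3 and 29.0 at 12h, and 37.8, 34.6 and 39.6 at 48h. The 0h and 1h libraries overlap, while those at 12h and at 48h stand clear of one another and of the rest. The rise was 3.77 at 12h (SE 0.29, adjusted p = 3.77e-06 by limma) and 4.44 at 48h (SE 0.29, adjusted p = 3.31e-07 by limma) on the log2 scale. The 1h value of 0.92 (SE 0.29, adjusted p = 0.0414 by limma) became 0.28 after median-of-ratios scaling (adjusted p = 0.550 by limma; between 0.0153 and 0.550 in 26 alternatives), and it lost its call in 20 of the 26. Conversely, the step from 12h to 48h, 0.67 by TPM (adjusted p = 0.102 by limma), was 1.41 after median-of-ratios scaling (adjusted p = 0.00224 by limma; between 0.00224 and 0.411 in 26 alternatives). At 48h the level of 37.4 ± 2.54 TPM (SD, n = 3) was above 98% of the genes tested.

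Abca1 encodes the transporter that hands cholesterol and phospholipid to lipid-poor apolipoprotein (chromosome 4, 53030787 to 53159895, minus strand). Its TPM was 0.06, 0 and 0.01 at 0h, 0, 0.02 and 0.02 at 1h, 0.77, 0.57 and 0.74 at 12h, and 2.25, 2.51 and 2.33 at 48h. It was near 0 before and at 1h, and the 12h and 48h libraries overlap neither with each other nor with the earlier ones. On the log2 scale it rose by 2.71 at 12h (SE 0.29, adjusted p = 4.32e-05 by limma) and 4.35 at 48h (SE 0.29, adjusted p = 3.66e-07 by limma) against 0h, and 1.64 from 12h to 48h (SE 0.29, adjusted p = 0.00117 by limma). Because 0h levels are near 0, the size depends on the amount added before the logarithm: the 48h value was 1.72 with 1 TPM added and 6.62 with 0.01 added, and the call held with both. The step from 12h to 48h did not pass with 0.01 added (1.77, adjusted p = 0.0904 by limma; between 2.27e-05 and 0.0904 in 25 alternatives). The LXR-type repeat printed above lies in the promoter of this gene. Abcg1 (chromosome 17, 31057675 to 31117988, plus strand), which exports cholesterol to mature HDL particles, did not rise above 0.13 TPM in any library. It was at 0, 0 and 0.05 at 0h, 0.13, 0.10 and 0.04 at 1h, 0 in all 3 libraries at 12h, and 0, 0 and 0.01 at 48h.

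Apoe encodes apolipoprotein E, a ligand of lipoprotein receptors and an acceptor of exported cholesterol (chromosome 7, 19696109 to 19699188, minus strand). Its TPM was 2.71, 3.95 and 2.39 at 0h, 3.87, 3.79 and 2.81 at 1h, 1.77, 3.38 and 1.74 at 12h, and 0.50, 1.22 and 1.92 at 48h. The 48h libraries lie below all 0h libraries but spread over more than a factor of 3 among themselves and overlap with those at 12h. Its change of -1.38 by 48h, on the log2 scale, passed (SE 0.41, adjusted p = 0.0177 by limma). Under median-of-ratios scaling the value of -1.01 did not pass (adjusted p = 0.0558 by limma; between 0.00487 and 0.151 in 26 alternatives). Without the first 48h library, the lowest, the value was -0.90 (adjusted p = 0.0642 by limma), and without the second 0h library, the highest, it was -1.18 (adjusted p = 0.0714 by limma). The values at 1h (0.22, adjusted p = 0.721 by limma) and 12h (-0.41, adjusted p = 0.486 by limma) did not pass, and the 1h value changed sign with the scaling (-0.42).

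The genes of both sensing receptors were listed at or near 0. Pparg (chromosome 6, 115360951 to 115490399, plus strand) was listed at 0 in all 12 libraries. Nr1h3 (chromosome 2, 91184061 to 91202834, minus strand) was at 0, 0 and 0.03 TPM at 0h, 0 in all libraries at 1h, 0.34, 0 and 0.07 at 12h, and 0, 0 and 0.14 at 48h. It was thus above 0 in 4 of 12 libraries and did not pass the filter, and 34 of its 2515 exonic bases also belong to Gm13783 on the same strand. The values are TPM without read counts, so the depth behind a 0 is not known. Nrip1 and Arl4c, which are expressed in many tissues, were likewise listed at 0 in all 12 libraries. Nr1h2, which encodes the other LXR, LXRβ, was measured throughout, with 8.92 ± 0.262 TPM (SD, n = 3) at 0h and 6.20 ± 2.27 at 48h. Its log2 fold change of -0.58 did not pass (adjusted p = 0.115 by limma). Ppard, encoding the related receptor PPARδ, was at 2.80 ± 0.333 TPM at 0h and 3.00 ± 0.602 at 48h (SD, n = 3; log2 fold change 0.09, adjusted p = 0.779 by limma), and after median-of-ratios scaling its value of 0.49 passed (adjusted p = 0.0265 by limma).

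**Figure D2:**
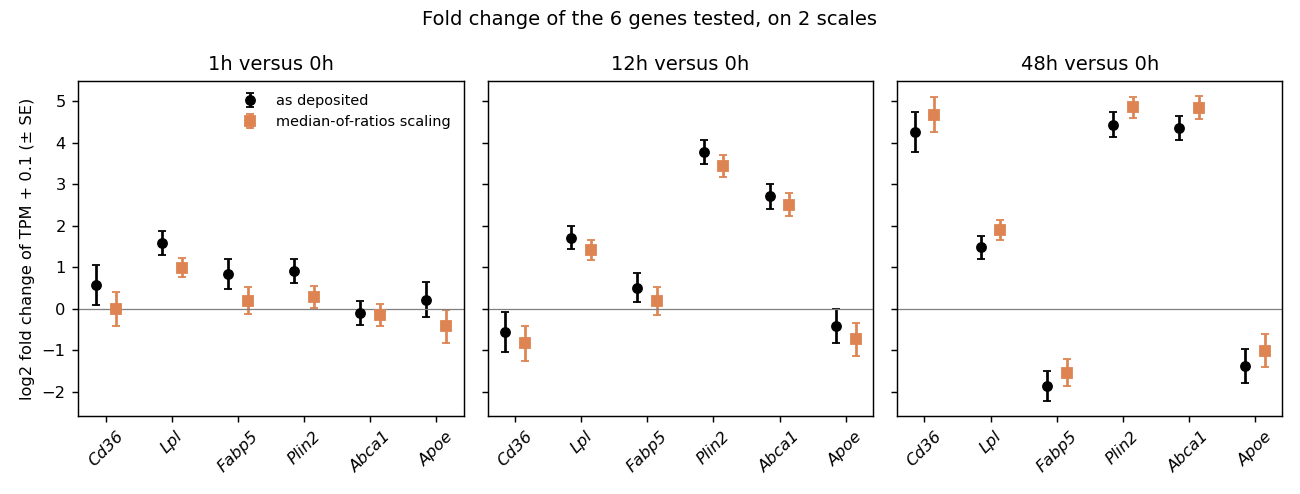
Log2 fold change of TPM + 0.1 (± standard error by limma) of the 6 genes tested at 1h, 12h and 48h against 0h, with TPM as deposited (black circles) and after median-of-ratios scaling (orange squares). Scaling lowers the 1h values of all 6 genes and raises all 6 at 48h, and at 48h Cd36, Plin2 and Abca1 lie above 4 on both scales.

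In the other comparisons the counts were smaller. At 12h against 0h, 3 of the 6 genes tested were higher (Lpl, Plin2 and Abca1), where 22.3% of all genes were. At 1h 2 were higher (Lpl and Plin2), where 24.1% of all genes were (5.42% after median-of-ratios scaling, which kept the call of Lpl alone), so on the deposited scale the share called was close to that of all genes. From 1h to 12h Plin2 (2.86, SE 0.29, adjusted p = 5.86e-05 by limma) and Abca1 (2.80, SE 0.29, adjusted p = 6.30e-05 by limma) rose, in a comparison in which 6.98% of all genes were higher. From 12h to 48h Cd36 and Abca1 rose, where 4.1% of all genes did, and Fabp5 fell, where 31.7% of all genes did. After median-of-ratios scaling 10.5% of all genes rose in this comparison, Plin2 among them. The comparisons against 0h share the same 3 libraries, and each is given by its own values.

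The order of the mean levels changed over time. At 0h Apoe, with 3.02 ± 0.824 TPM (SD, n = 3), stood first, followed by Fabp5 (1.88 ± 0.235), Plin2 (1.71 ± 0.726), Cd36 (0.653 ± 0.301) and Lpl (0.390 ± 0.123). The range of Plin2 overlaps with those of Apoe and Fabp5 there, as do the ranges of Cd36 and Lpl. At 48h Plin2 (37.4) and Cd36 (13.7) stood apart, followed by Abca1 (2.36 ± 0.133), Lpl (1.25 ± 0.160), Apoe (1.21 ± 0.710) and Fabp5 (0.463 ± 0.178). The 48h ranges of Lpl and Apoe overlap, and so do those of Apoe and Fabp5.

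For each of the 6 genes, genes with the most similar course (at most 2 for each) were found by Pearson's r over the 12 libraries, among 10875 candidates. Because 4 time points set most of these values, they are a description. Abca1 was closest to Fcgr3, a receptor for antibody (r = 0.998), and Thbs1 (r = 0.995), Plin2 to Ptafr, the receptor for platelet-activating factor (r = 0.993), and Cd300lf (r = 0.992), and Cd36 to H2-T22 (r = 0.966) and Laptm5 (r = 0.964). Lpl was closest to Sec24b (r = 0.981) and Bmpr2 (r = 0.981), both of which, like Lpl, had their lowest mean at 0h. Fabp5 was closest to Ubxn1 (r = 0.987) and Ezr (r = 0.985), and Apoe was close to Wdr61 (r = 0.957).

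Around the 10 genes, 115 others were grouped by role into 7 lists, of which 81 passed the filter. At 48h against 0h, 24 of them were higher and 18 lower, and 33 and 8 after median-of-ratios scaling, so the balance rests on the scale. Their median log2 fold change was 0.26, beside -0.18 over all genes tested. Of all genes tested, 15.9% were higher and 27.2% lower in this comparison (24.5% and 22.0% after median-of-ratios scaling). The counts of each list below stand beside these shares.

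Of the 7 lists, that of lysosomal genes had the largest share of increases, with 7 of 10 higher and 1 lower. Psap, the precursor of the saposins that help break down sphingolipid, went from 15.2, 13.0 and 14.04 TPM at 0h to 166, 196 and 252 at 48h (log2 fold change 3.84, SE 0.18, adjusted p = 2.30e-08 by limma). Npc2, which moves cholesterol out of the lysosome, went from 7.38, 4.82 and 5.01 to 35.8, 41.4 and 55.6 TPM (2.93, SE 0.26, adjusted p = 3.35e-06 by limma). Both were higher in every 48h library than in any 0h library.

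Among 19 tested genes of droplets, esterification and lipolysis, 7 were higher and 2 lower (8 and 0 after median-of-ratios scaling). Soat1, which esterifies cholesterol for storage, rose from 6.67, 8.30 and 7.10 TPM at 0h to 37.4, 39.4 and 44.9 at 48h (2.45, SE 0.18, adjusted p = 8.65e-07 by limma), and had been at 27.1, 33.4 and 22.4 at 1h. Abhd5, the co-activator of the triglyceride lipase ATGL, rose from 0.34, 0.18 and 0.19 to 5.53, 5.53 and 7.59 TPM (4.25, SE 0.34, adjusted p = 1.29e-06 by limma). Mgll, the monoglyceride lipase, fell by TPM (-0.90, adjusted p = 0.0301 by limma) and did not pass after median-of-ratios scaling (-0.53, adjusted p = 0.120 by limma). Genes of storage and of release were thus both among the increases, as Plin2 was.

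Of 9 lipase partners and apolipoproteins tested, 3 were higher and 2 lower (4 and 1 with that scaling). The 3 increases by TPM were genes listed at 0 in all 0h libraries. They passed the filter through later time points alone, so they could not have been called lower. Apoc2, the activator of lipoprotein lipase, was listed at 0 in all 0h libraries and reached 18.0, 26.1 and 35.2 TPM at 48h. Apoc1 was likewise at 0 at 0h, and was at 4.47, 5.76 and 4.79 TPM at 12h and 2.12, 2.15 and 2.73 at 48h. Both lie in the gene cluster of Apoe on chromosome 7 and went up while Apoe went down by TPM. Gpihbp1, which anchors the lipase on endothelium, was listed at 0 in every library. Lmf1, needed for the lipase to fold, fell by TPM (-1.06, adjusted p = 0.0250 by limma) and did not pass after scaling (-0.69, adjusted p = 0.0925 by limma).

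Among the receptors and carriers, 2 of 10 were higher and 2 lower (3 and 1 with median-of-ratios scaling). By TPM this is near the shares over all genes, 15.9% and 27.2%. Lrp1, a large endocytic receptor for apolipoprotein E, rose from 0.88, 0.36 and 0.25 TPM to 4.15, 5.17 and 5.90 (3.25, SE 0.37, adjusted p = 2.71e-05 by limma), and Scarb2, a lysosomal relative of CD36, by 0.92 (adjusted p = 0.00311 by limma). In the list of fatty acid activation and oxidation, 1 of 14 was higher and 2 lower by TPM, against 3 and 1 once scaled. The increase by TPM was Cpt1a, the gate of fatty acid entry into mitochondria, whose TPM was 2.05, 0.99 and 1.67 at 0h, 12.7, 12.6 and 13.6 at 1h and 3.95, 5.24 and 6.09 at 48h. Acsl3, which activates fatty acids at the droplet surface, fell (-1.73, adjusted p = 0.000748 by limma), and Dbi, which encodes the acyl-CoA binding protein, fell by TPM (-0.78, adjusted p = 0.0154 by limma) and did not pass after scaling (-0.37, adjusted p = 0.104 by limma).

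The 8 tested genes among other textbook LXR targets and sterol transporters did not share a direction, with 2 higher and 4 lower (4 and 2 after median-of-ratios scaling). Abca7 rose from 0.82, 0.91 and 0.91 TPM to 2.16, 2.48 and 4.18 (1.58, adjusted p = 0.000449 by limma). The stearoyl-CoA desaturase genes fell, Scd1 from 24.9, 25.0 and 24.3 to 4.87, 9.14 and 6.96 TPM (-1.85, SE 0.22, adjusted p = 2.91e-05 by limma) and Scd2 from 44.0, 39.9 and 35.8 to 15.9, 20.5 and 17.8 (-1.14, SE 0.15, adjusted p = 7.89e-05 by limma). Of 11 nuclear receptors and cofactors tested, 2 were higher and 5 lower (4 and 2 after scaling). The co-activator genes Ncoa1 (1.55, adjusted p = 0.00422 by limma) and Ncoa3 (0.97, adjusted p = 0.00154 by limma) rose. Rxrb, which encodes a partner of LXR and PPAR, fell by TPM (-1.52, adjusted p = 0.0422 by limma) but did not pass after scaling (-1.14, adjusted p = 0.0870 by limma).

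**Figure D3:**
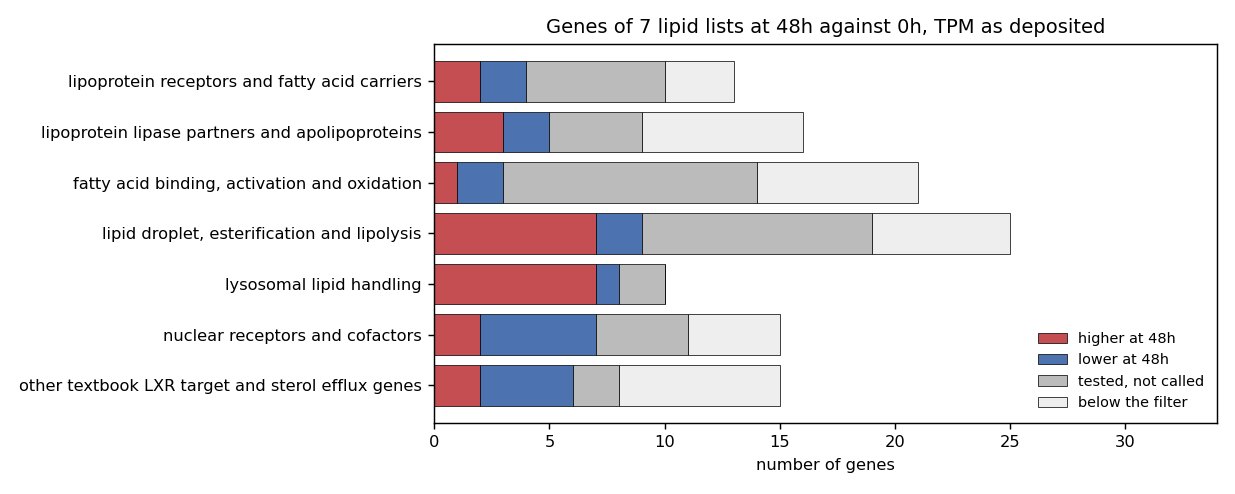
Number of genes in each of 7 lipid lists that were higher (red), lower (blue), tested but not called (grey) or below the filter (white) at 48h against 0h, with TPM as deposited. Lysosomal genes show 7 of 10 higher, and nuclear receptors and cofactors 5 of 11 tested lower. Over all genes tested, 15.9% were higher and 27.2% lower.

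The promoter contacts were counted for the bait fragments that hold an annotated start of a gene. Baits were taken from the 4 lists, so a captured fragment with no interaction in any list is not among them. Of the 10 genes, 9 had such a bait (2 for Apoe). Abcg1 had none, and whether its promoter had been captured was not examined. The 4 lists hold between 131598 and 144072 interactions over 18175 baits, with a median of 4 per bait at each time point. There is 1 list per time point, so differences between lists have no replicate check and no test. Scores are printed in the 0h list alone, so whether all lists were cut at the same score cannot be read from them. At 48h against 0h, 7 of the 10 baits had more contacts listed, 2 fewer and 1 the same number, while 43.3% of all baits had more and 40.1% fewer.

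Cd36 gained the most. Its bait (chr5:17888131-17889282) went from 4 listed contacts at 0h to 6 at 1h, 28 at 12h and 60 by 48h. A gain of at least 56 from 0h to 48h was seen at 15 of the 18175 baits, Cd36 included. At 12h the number of contacts was already above that of 0h while the RNA was not, and at 48h both were high. At 48h 49 of the 60 contacted fragments lay upstream of the gene, within 200 kb, and all 28 of the 12h contacts were listed again at 48h. Many of these fragments abut one another, so the counts are of fragments and not of separate regions. Of the 28 at 12h, 4 had been listed at 0h and 19 lay within 10 kb of a 0h contact. Of the 60 at 48h, these numbers were 4 and 29. The bait lies at the most upstream of the annotated starts, and the RefSeq start used for the printed window is 52.8 kb away from its midpoint. The fragment with a start of Cd36 at 52.0 kb was listed in contact with the bait at 48h.

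Lpl showed the same direction at a smaller scale. Its bait (chr8:68880374-68882015) went from 1 listed contact at 0h to 2 at 1h, 10 at 12h and 17 by 48h, and 2.65% of baits gained at least as many by 48h. All of them lay downstream of the gene. At 12h all 10, and at 48h 14 of 17, lay between 100 and 160 kb from the bait, the region that held the single 0h contact. Lpl RNA was already above its 0h level at 1h, when 2 contacts were listed.

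Abca1 had another course. Its bait (chr4:53152454-53168138) went from 7 listed contacts at 0h to 1 at 1h, 0 at 12h and 14 by 48h, and 10.3% of baits gained at least 7 by 48h. The highest score among its 7 contacts at 0h was 9.25, where the cut was 5 (8.5 for Cd36 and 5.54 for Lpl). The other lists give no score, so how far a contact lay from the cut cannot be read from them. RNA was first raised at 12h, when no contact was listed. All 14 contacts at 48h lay upstream, at most 432 kb away, and 3 of them had been listed at 0h. A fragment with a start of Slc44a1, a choline transporter gene, 432 kb upstream, was listed at 0h, 1h and 48h. Another fragment with a start of Slc44a1, itself a bait and 279 kb upstream, was listed at 48h alone.

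**Figure D4:**
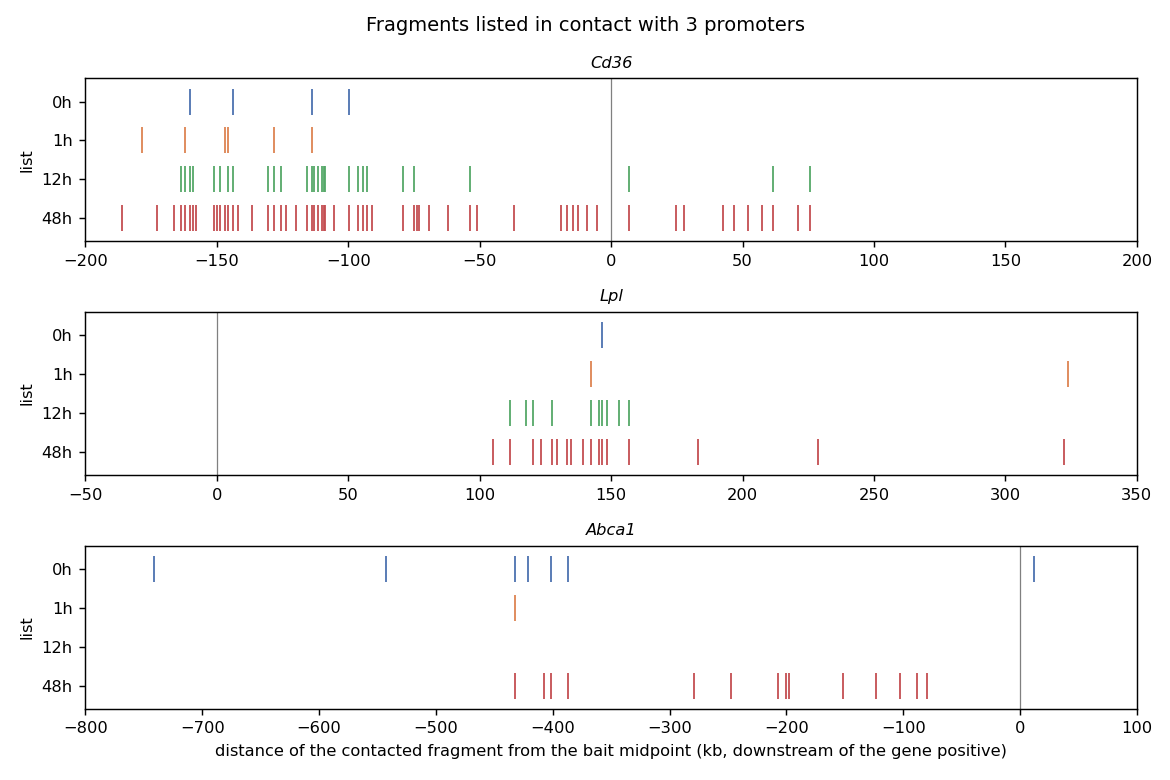
Fragments listed in contact with the baits of Cd36, Lpl and Abca1 at each time point (ticks), by distance from the bait midpoint in kb, with downstream of the gene positive. Cd36 ticks fill the upstream 200 kb by 48h (1 further contact, 901 kb away, lies outside the axis), Lpl ticks gather between 100 and 160 kb downstream, and Abca1 has none at 12h and 14 upstream at 48h.

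Plin2, whose RNA had risen by 12h, changed little in number, with 6, 4, 7 and 6 contacts listed at 0h, 1h, 12h and 48h (chr4:86669513-86670622). All lay downstream, at most 129 kb away, and 4 of the 6 at 48h were those of 0h. Fragments with a start of Rraga and of Haus6 were listed at all 4 time points.

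Apoe lost contacts. Its bait at the gene start (chr7:19697965-19700349) went from 27 listed contacts at 0h to 35 at 1h, 13 at 12h and 10 by 48h. A loss of at least 17 by 48h was seen at 2.18% of all baits. Their median was 4 contacts at 0h, so many of them could not lose 17. A second bait (chr7:19690327-19697964), which also holds the start of Apoc1, went from 12 to 11, 8 and 4. Its contacts cannot be assigned to 1 of the 2 genes. Of the 14 contacts listed over both at 48h, 13 had been listed at 0h. Fragments with a start of Apoc2, of Apoc4 and of Tomm40 were listed in contact with the bait at the Apoe start at all 4 time points.

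The fatty acid binding protein genes are themselves listed as partners. The baits of Fabp5 (chr3:10011166-10014439) and Fabp4 (chr3:10208480-10216458), 200 kb apart, were listed in contact with each other at 1h, 12h and 48h but not at 0h. Fabp5 had 23, 29, 34 and 29 contacts listed, of which 21 of the 29 at 48h had been listed at 0h, although its RNA had fallen by then. Fabp4 had 0, 2, 4 and 5, and Pparg 0, 0, 0 and 2, and both genes were listed at 0 TPM in all 12 libraries.

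Nr1h3 had 15, 41, 30 and 23 contacts listed. The gain of 26 at 1h was reached by 36 of the 18175 baits. This bait (chr2:91198969-91207879) also holds a start of Acp2, and the RefSeq start of Nr1h3 lies outside it, 8.3 kb from its midpoint, so the contacts cannot be assigned to 1 of the 2 genes. At 12h alone, a fragment 121 kb away with a start of Spi1, which encodes the transcription factor PU.1, was among the contacts of this bait.

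**Figure D5:**
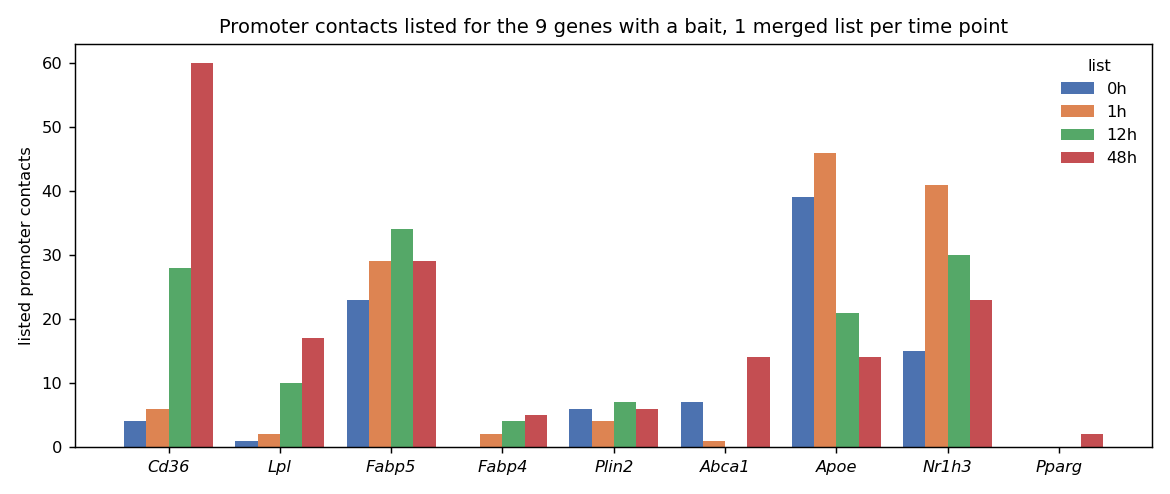
Number of promoter contacts listed for each of the 9 genes with a bait at 0h, 1h, 12h and 48h (bars, 1 merged list per time point, no error can be given). Both baits of Apoe are added, 1 of which also holds the start of Apoc1. Cd36 goes from 4 to 60, Lpl from 1 to 17 and Apoe from 39 to 14, while Plin2 stays between 4 and 7.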

How the data were processed

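RNA-seq of 12 libraries (3 at each of 4 time points) and 4 PCHi-C lists, each merged from 2 replicates, were used. Hi-C was not used here. The authors merged technical replicates, trimmed reads with Trim Galore 0.6.2, aligned them to mm10 with HISAT2 2.1.0 and deposited TPM from RSEM. No counts were used here, so depth is unknown. Interactions were called by the authors with CHiCAGO 1.12.0 at a score of at least 5. The deposited 0h list gives that score, and the others give whole numbers of an unnamed kind, which were not used. Here limma 3.58.1 (R 4.3.3, mean-variance trend) was fitted to log2(TPM + 0.1) of all 12 libraries, with adjustment over all genes whose mean TPM reached 0.1, and was tested on simulated data. The genes and lists were chosen with earlier results of these data known. All 10 genes are named, as are, per list, up to 2 increases and 2 decreases, the largest at 48h among called genes with a mean of at least 1 TPM over the 6 libraries. Nr1h2, Ppard, Gpihbp1 and the genes at contacted fragments were named after their values were seen. Some genes that these rules name are not reported here. Starts came from GENCODE M21, and an interaction between baits was counted for each bait. Alternatives varied the pseudocount, filter, scaling, trend, libraries, replicate block and thresholds.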

Additional observations from a re-analysis of the deposited data

How the results depend on the processing

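Of the 775 values of single genes computed under alternatives, 721 kept their direction and their side of the threshold, 32 lost the call, 6 gained one and 16 changed sign. The counts of 3 genes higher at 12h and 4 higher at 48h against 0h stayed within 1.5 times under all 28 alternatives. The count of 2 higher at 1h did not: it was 1 with a pseudocount of 1, no filter, median-of-ratios scaling, no trend, only the 6 libraries compared, the replicate block with or without median-of-ratios scaling, or a log2 fold change beyond 1. It was 0 after rescaling without the 20 most abundant genes, after quantile normalization or beyond 2, and from 0 to 2 with libraries left out. The 2 lower at 48h were 1 with median-of-ratios scaling, quantile normalization or only the 6 libraries compared, 0 beyond 2, and from 1 to 2 with libraries left out. For 12h against 1h, 1 gene was higher at a mean TPM of at least 1, and 1 lower with no filter, with a range of 0 to 1 for libraries left out. For 48h against 12h, 1 was higher with a pseudocount of 0.01, a mean TPM of at least 1 or a fold beyond 2, and from 1 to 2 were lower with libraries left out. In the lists, 8 were higher and 1 lower beyond 2, and the 18 lower were 8 with median-of-ratios scaling, 11 after rescaling without the 20 most abundant genes, 9 after quantile normalization, 11 with the replicate block and median-of-ratios scaling, 10 beyond 1, and from 7 to 20 with libraries left out (7 without replicate 1 and 11 without 0h replicate 1). The cause was not tested.

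At 1h the sign changed for Apoe with median-of-ratios scaling, also with the replicate block (-0.42), rescaling (-0.25) and quantile normalization (-0.38), for Cd36 with the first of these, also with the block (-0.013), and quantile normalization (-0.12), and for Abca1 with libraries left out (from -0.28 to 0.19, above 0 without 0h replicate 1). With libraries left out, Cd36 at 12h ranged from -1.32 to 0.26 (above 0 without replicate 1) and Lpl at 12h against 1h from -0.21 to 0.32 (below 0 without 1h replicate 3), and Lpl at 48h against 12h was 0.48 with median-of-ratios scaling, also with the replicate block, 0.30 after rescaling and 0.51 after quantile normalization. None of these values passed the threshold. Replicate numbers were not taken as pairs, since the labels tie a number to no shared culture. Of 18 correlations of same-numbered deviations, 7 were over 0.1 (from -0.01 to 0.26), and what they would be without any sharing was not computed. Of the 6 for replicate 3, whose columns are numbered after all others, 5 were over 0.1, and whether those libraries share a batch was not tested. Best matched by their own number were 7 of 12 libraries.

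The 95, 131, 134 and 170 contacts of the 9 genes at 0h, 1h, 12h and 48h were 83, 120, 126 and 166 when only baits at the gene start were used, and 12 at 0h with a score of at least 10. Shared with 0h were 58, 56 and 56 at the later times, and 96, 97 and 99 when other ends within 10 kb counted as shared. TPM without counts leave the precision of levels near 0 unknown.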
